A study of Mus musculus with 2 samples.

Results

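The miR-17-92 cluster and its paralogs are 3 groups of neighbouring miRNA hairpins that gave rise to one another by duplication. In these data they are represented by 10 mature miRNAs out of the 1976 listed, taken by name from the miR-17-92, miR-106b-25 and miR-106a-363 clusters. They were measured in exosomes, the small vesicles that cells release, from mouse bone marrow-derived macrophages. The series holds 2 small RNA libraries, called the M1 and the M2 library here. The M1 exosomes came from macrophages polarised for 1 day with IFN-γ at 20 ng/mL, and the M2 exosomes from macrophages polarised for 1 day with IL-4 at 20 ng/mL. Both groups were C57BL/6 cells from mice aged 5-6 weeks, grown for 7 days with M-CSF at 10 ng/mL and held for 2 days in serum-free medium before the vesicles were collected by ultracentrifugation. The number of mice behind each culture is not given in the sources used here. With 1 library per group there is no replicate error, no test of polarisation was possible, and every difference below is between 2 libraries and not between 2 conditions.

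A miRNA acts by pairing its seed, bases 2 to 8 from its 5′ end, with sites in messenger RNAs, so miRNAs with 1 seed are expected to share many targets. The miR-17-92 cluster is a polycistron, a single transcript cut into several hairpins, and is known for promoting proliferation and survival of blood cell precursors, with Bcl2l11 (Bim) among its targets. Each hairpin can give a mature miRNA from its 5′ arm (5p) and from its 3′ arm (3p), of which usually one, the guide, is kept and the other, the passenger, is degraded.

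The sequences below, from RefSeq (GRCm38.p6), are shown because the members fall into groups by seed rather than by cluster. All 10 members were matched there, and capitals mark the seed.
mmu-miR-17-5p: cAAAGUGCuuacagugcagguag
mmu-miR-20a-5p: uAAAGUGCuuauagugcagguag
mmu-miR-93-5p: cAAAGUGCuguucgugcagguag
mmu-miR-106b-5p: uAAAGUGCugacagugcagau
mmu-miR-18a-5p: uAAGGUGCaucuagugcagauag
mmu-miR-19b-3p: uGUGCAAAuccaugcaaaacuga
mmu-miR-25-3p: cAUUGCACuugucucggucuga
mmu-miR-92a-3p: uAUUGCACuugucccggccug
mmu-miR-363-3p: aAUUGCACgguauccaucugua
mmu-miR-106b-3p: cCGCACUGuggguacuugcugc

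The first 4 share the seed AAAGUGC and come from 2 clusters. miR-25-3p, miR-92a-3p and miR-363-3p share AUUGCAC and come from all 3 clusters. miR-18a-5p and miR-19b-3p each stand for a seed of their own, and miR-106b-3p, from the opposite arm of the miR-106b hairpin, has a seed that no other miRNA in the RefSeq table carries. Within a seed group the sequences are close. Counting from 1 at the 5′ end, miR-20a-5p differs from miR-17-5p at 2 of 23 bases, C1U and C12U, and miR-25-3p differs from miR-92a-3p at 3 of the 21 bases compared, U1C, C14U and C18U. miR-363-3p differs from miR-92a-3p at 11 of 21. How reads matching several of these sequences were assigned is not given in the sources used here. Values within the miR-17 group, and of other close relatives named below, are uncertain to that extent.

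The miR-17-92 cluster lies at chr14:115043671-115044506 on the plus strand (GRCm38, hairpin positions), where its 6 hairpins fall in an exon of the long noncoding RNA Mir17hg. The miR-106b-25 cluster lies at chr5:138165321-138165818 on the minus strand within Mcm7, a gene of the DNA replication helicase. In GENCODE M21 its mir-106b hairpin is intronic, and mir-93 and mir-25 lie in exons of Mcm7 transcripts annotated as retained introns. The miR-106a-363 cluster lies at chrX:52741693-52742567 on the minus strand, where the mir-106a hairpin overlaps the last bases of the noncoding gene Kis2 and the other 5 hairpins lie between annotated genes. Of the members, miR-19b-3p and miR-92a-3p have a hairpin in both the chromosome 14 and the X cluster, so their values do not separate these loci. miR-363-3p is the member that comes from the X cluster alone.

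All 10 members were above 0 in at least 1 library, and their levels ran from among the highest of the data to a few reads. The deposited values are on a log2(level + 1) scale, and levels are given here in its linear units. Among miRNAs without a full read in the other library, the lowest levels fall on even steps that were taken as the worth of 1 read, 0.80 units in the M1 library and 1.22 units in the M2 library. Most low values of miRNAs seen in both libraries lie off these steps, so read numbers given for them are approximate, and 175 values of the M2 library lie above 0 but below 1 read. The members are read whole at a length of 21 to 23 bases, so levels were compared without a length correction, but the efficiency with which each sequence is ligated and amplified was not measured. A miRNA was compared between libraries if it reached 10 units in at least 1 of them, which 337 miRNAs did. Together the members held 2.04% of the summed level in the M1 library, 13980 of 686353 units, and 1.14% in the M2 library, 8396 of 734637 units.

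miR-25-3p was by far the most abundant member, at 8375 units in the M1 library and 5525 units in the M2 library. It ranked 20th and 22nd among all miRNAs of those libraries and made up 59.9% and 65.8% of the members' summed level. miR-106b-3p followed at 3939 and 1733 units (ranks 24 and 38). They come from the last and the first hairpin of the Mcm7 cluster, respectively. miR-92a-3p, at 859 and 439.8 units, and miR-93-5p, at 595 and 507 units, formed a middle group with ranks between 63 and 86. Their order differed between libraries, miR-92a-3p being the higher of the pair in the M1 library and miR-93-5p in the M2 library. miR-17-5p (62.5 and 67.0 units), miR-20a-5p (44.3 and 84.6), miR-19b-3p (47.6 and 17.8) and miR-106b-5p (39.6 and 15.3) were low, at ranks 156 to 256. miR-363-3p, at 17.5 units in the M1 library, had 1.38 units in the M2 library, near 1 read. miR-18a-5p was listed at 0 in the M1 library and had 4.92 units, near 4 reads, in the M2 library. It did not reach the minimum, so 9 of the 10 members were compared.

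**Figure D1:**
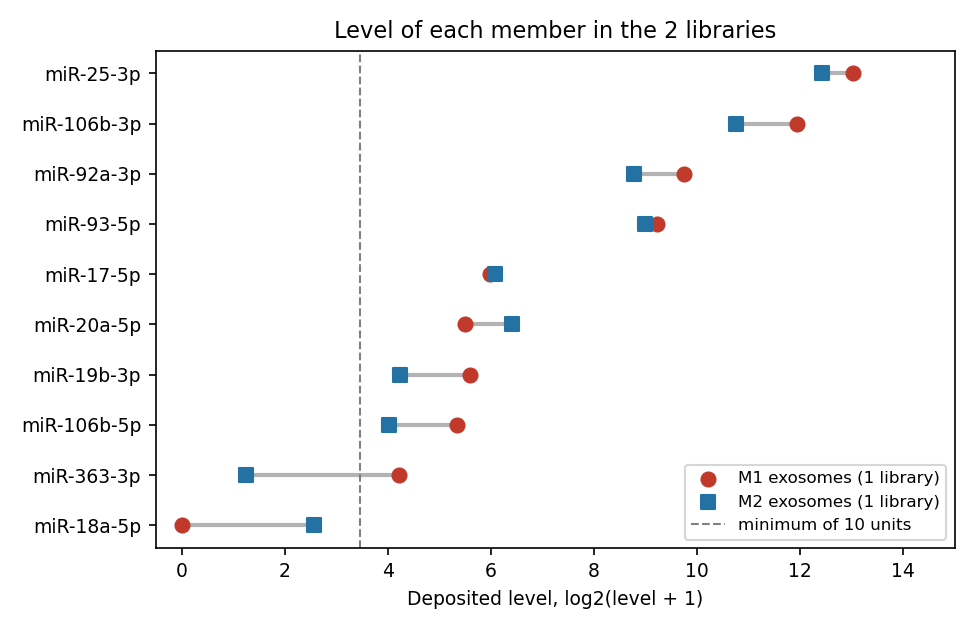
Deposited level of each of the 10 members, log2(level + 1), in M1 exosomes (circles) and M2 exosomes (squares), 1 library each, ordered by mean level; the dashed line marks 10 units. miR-25-3p and miR-106b-3p lie above 10 on this scale in both libraries, and miR-17-5p, miR-20a-5p and miR-18a-5p are the members whose M2 value is the higher one.

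The 9 compared members included 4 that were higher by 2-fold or more in the M1 library and 0 that were so in the M2 library, while 5 lay within 2-fold. Over all compared miRNAs these shares were 26.1% and 22.8%. The ratio used is the deposited log2 value of M1 minus that of M2. It was above 0 for 7 of the 9 members against 50.7% of all compared miRNAs, and the members' median was 0.96 (SD over members 1.09) against 0.04 (SD 1.59) for all. The 4 are miR-106b-3p, miR-106b-5p, miR-19b-3p and miR-363-3p, so 2 of them are arms of 1 hairpin and 1, miR-363-3p, rests on about 1 read in the M2 library. miR-363-3p reached the minimum in the M1 library alone, so its direction was set by the filter. Without miR-363-3p, 3 of 8 members passed 2-fold on the M1 side. Among members with at least 100 units in a library the number was 1 of 4, miR-106b-3p, against 37 of 162 for all miRNAs at that minimum. Division of each library by its summed level brought miR-92a-3p past 2-fold, at 1.06, and the number to 5 of 9. For all compared miRNAs the number was then 94 of 337.

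**Figure D2:**
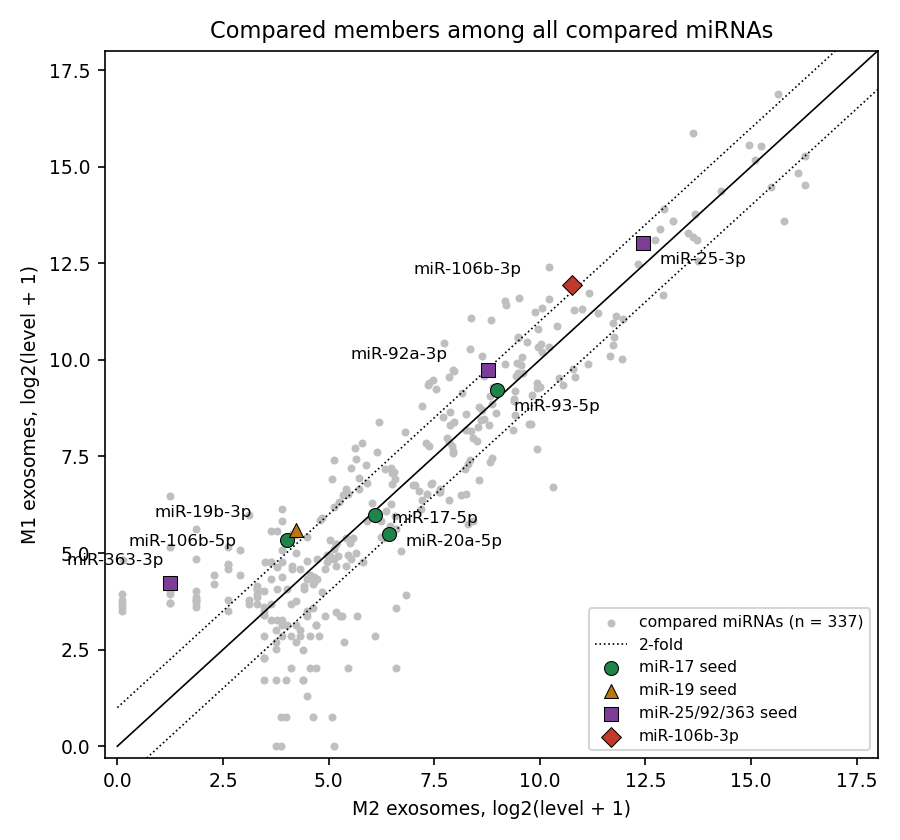
Deposited level in M1 exosomes (vertical) against M2 exosomes (horizontal), log2(level + 1), for the 337 compared miRNAs (grey) and the 9 compared members, coloured by seed. The solid line marks equal values and the dotted lines 2-fold; miR-106b-3p, miR-106b-5p, miR-19b-3p and miR-363-3p lie above the upper dotted line, and miR-92a-3p lies just below it at 0.96.

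The miR-25 seed group, miR-25-3p, miR-92a-3p and miR-363-3p, held most of the members' level and each of its 3 members had the higher value in the M1 library. The log2 ratios were 0.60 for miR-25-3p, 0.96 for miR-92a-3p and 2.96 for miR-363-3p, with a median of 0.96, or 0.78 without miR-363-3p, whose direction the minimum level set. Summed over the group, the level was 9251 units in the M1 library and 5966 units in the M2 library, a ratio of 1.55. Of that sum miR-25-3p held 90.5% in the M1 library and 92.6% in the M2 library, so the group's sum is largely the value of 1 miRNA. Rounded to whole reads, miR-363-3p had about 22 in the M1 library and 1 in the M2 library. The ratio of those rounded reads, scaled by the worth of a read, was 14.4 with an exact 95% binomial interval of 2.33 to 594, for counting error only. The interval takes rounded normalized values as counts. It leaves the selection by the M1 level out of account, so it does not test the direction.

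Other loci carry the AUUGCAC seed as well. miR-32-5p, from an intron of Tmem245 on chromosome 4, had 33.2 units in the M1 library and 34.1 in the M2 library, a log2 ratio of -0.04. miR-92b-3p, from between annotated genes on chromosome 3, differs from miR-92a-3p at U10C and G21C. It had 12.0 units in the M1 library and 2.64 in the M2 library, the latter under the floor of 3 reads (3.67 units), and a log2 ratio of 1.83. Like miR-363-3p, it reached the minimum in the M1 library alone, so its direction was set by the filter. miR-367-3p was listed at 0 in both libraries.

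The miR-17 seed group, the seed group with the most members, was split between the libraries. Its 4 members had log2 ratios of -0.92 (miR-20a-5p), -0.10 (miR-17-5p), 0.23 (miR-93-5p) and 1.32 (miR-106b-5p), with a median of 0.07. The summed level was 742 units in the M1 library and 674 units in the M2 library, a ratio of 1.10. miR-93-5p held 80.3% of it in the M1 library and 75.2% in the M2 library. The members on the 2 sides of 0 come from different clusters. miR-17-5p and miR-20a-5p, both from the chromosome 14 cluster, were the only compared members with the higher value in the M2 library. The side of miR-17-5p is not firm, as its log2 ratio was -0.0014 when each library was divided by its summed level. miR-93-5p and miR-106b-5p, both from Mcm7, had the higher value in the M1 library. The remaining miRNAs with this seed were near or at 0: miR-106a-5p had 1.61 and 0.03 units, miR-20b-5p had 0.76 and 1.27 units, and miR-6383 was listed at 0 in both libraries. Both X cluster values above 0 correspond to about 2 reads or fewer.

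miR-19b-3p, which carries the miR-19 seed, was 2.67-fold higher in the M1 library by level, at 47.6 against 17.8 units, with a log2 ratio of 1.37. Its closest relative miR-19a-3p differs from it at 1 of 23 bases, C11U, and was low in both libraries, at 6.33 units in the M1 library and 5.09 units in the M2 library. The pair thus stood 7.51-fold apart in the M1 library and 3.49-fold apart in the M2 library, although both are cut from the chromosome 14 transcript. These folds rest on about 8 and 4 reads of miR-19a-3p, and how reads were assigned between such close sequences is not known. miR-19b-3p has a second hairpin on the X chromosome and miR-19a-3p has none. The miR-18 seed was close to absent. miR-18b-5p was listed at 0 in both libraries, and the 4.92 units of miR-18a-5p in the M2 library compare with 3.67 units for 3 reads there. A level of 0 in the M1 library allows up to 2.40 units. For miR-18a-5p, at 0 and 4 rounded reads, the interval made as for miR-363-3p ran from 0 to 0.99, with the same limits.

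By cluster, the miR-106b-25 members were 12.8-fold more abundant than the miR-17-92 members in the M1 library and 12.7-fold in the M2 library, as sums of 12949 against 1013 units and of 7780 against 614 units. Both sums had nearly the same ratio between libraries, 1.66 for miR-106b-25 and 1.65 for miR-17-92. Member by member they were not alike. All 4 miR-106b-25 members lay above 0, from 0.23 to 1.32, with a median of 0.89. The 4 compared miR-17-92 members ran from -0.92 to 1.37, with a median of 0.43, and miR-92a-3p alone made up most of that cluster's sum. With no minimum level, which brings in miR-18a-5p, that median was -0.10. With a minimum of 100 units the order of the clusters turned, the median being 0.60 for miR-106b-25 and 0.96 for miR-17-92, the latter from miR-92a-3p alone.

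Within each cluster the level differed widely between hairpins, although these are known to be cut from a shared transcript. Among miRNAs of the chromosome 14 cluster miR-92a-3p had the highest value, but it is also cut from a hairpin of the X cluster. It stood 13.7-fold above miR-17-5p, from the first hairpin, in the M1 library and 6.57-fold above it in the M2 library. In the Mcm7 cluster the last hairpin gave the highest value. miR-25-3p stood 14.1-fold above miR-93-5p in the M1 library and 10.9-fold in the M2 library. Against the first hairpin it stood 2.13-fold and 3.19-fold above miR-106b-3p, the arm with nearly all of that hairpin's level. It stood 211-fold and 362-fold above the minor arm, miR-106b-5p. In the X cluster miR-363-3p, also from the last hairpin, had the highest value in the M1 library among the miRNAs that come from that cluster alone. In the M2 library it stood at 1.38 units against 1.27 for miR-20b-5p, each about 1 read, so no order can be read there.

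**Figure D3:**
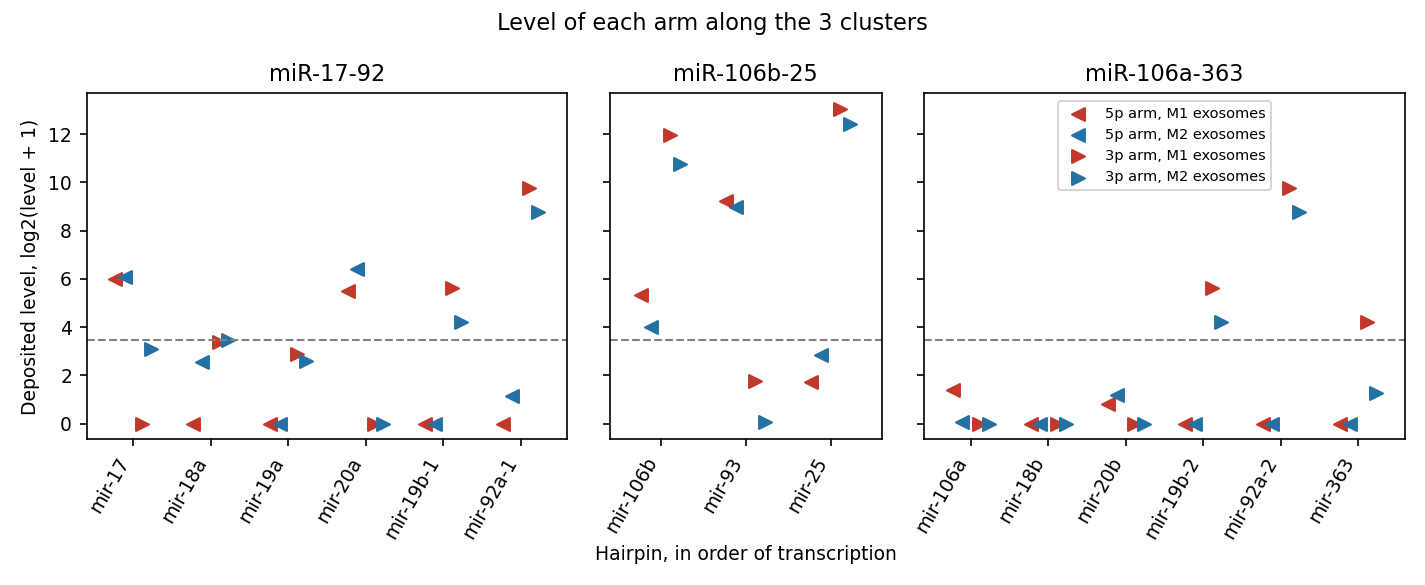
Deposited level, log2(level + 1), of the 5p arm (left-pointing) and 3p arm (right-pointing) of each hairpin in M1 exosomes (red) and M2 exosomes (blue), with hairpins in the order in which they are transcribed; the dashed line marks 10 units. miR-19b-3p and miR-92a-3p are drawn in both the miR-17-92 and the miR-106a-363 panel because their reads cannot be assigned to 1 locus, and the highest value of the miR-106b-25 panel is that of its last hairpin.

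The arms of the hairpins were strongly unequal. For mir-106b the 3p arm, usually regarded as the passenger, exceeded the 5p arm 99.4-fold in the M1 library and 113.6-fold in the M2 library. Both arms were more than 2-fold higher in the M1 library, by 2.27-fold in level for miR-106b-3p and 2.60-fold for miR-106b-5p, and the 3p arm held 99.0% and 99.1% of the hairpin's level. mir-25 and mir-92a were carried by their 3p arms. miR-25-5p had 2.31 units in the M1 library and 6.27 units in the M2 library, a preference for the 3p arm of 3625-fold and 882-fold, each resting on a few reads of the 5p arm. mir-93 was carried by its 5p arm, with miR-93-3p at 2.42 and 0.04 units, the latter below the worth of 1 read. mir-17 and mir-20a were also carried by the 5p arm. miR-20a-3p was listed at 0 in each library. miR-17-3p had 7.43 units in the M2 library and was listed at 0 in the M1 library. For mir-18a the 3p arm was the higher one, miR-18a-3p having 9.48 and 10.1 units. It was the only one of the 18 other mature miRNAs of the 3 clusters to reach the minimum, with a log2 ratio of -0.09. Of those 18, 10 were listed at 0 in both libraries, and miR-92a-1-5p had 1.22 units, the worth of 1 read, in the M2 library and 0 in the M1 library.

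The members were also grouped by arm, a split made after the values were seen. All 5 3p members had a ratio above 0, miR-363-3p by the filter, 3 of them at 2-fold or more, and their median was 1.18. Of the 4 compared 5p members 2 lay above 0, 1 of them at 2-fold or more, and their median was 0.07. Of the compared 3p miRNAs 58.5% lay above 0, 30.3% passed 2-fold on the M1 side and 17.6% on the M2 side, and the median was 0.34. For the compared 5p miRNAs the corresponding shares were 48.7%, 24% and 26%, with a median of -0.03. The 3p members held 94.7% of the members' level in the M1 library and 91.9% in the M2 library. GC content ranged from 39.1% (miR-19b-3p and miR-20a-5p) to 63.6% (miR-106b-3p) among the members. Over the 293 compared miRNAs with a RefSeq sequence, the Spearman correlation of GC content with the log2 ratio was 0.18. This is a correlation across miRNAs, which share 2 libraries and are not replicates. The part of base composition in the members' ratios was not tested.

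**Figure D4:**
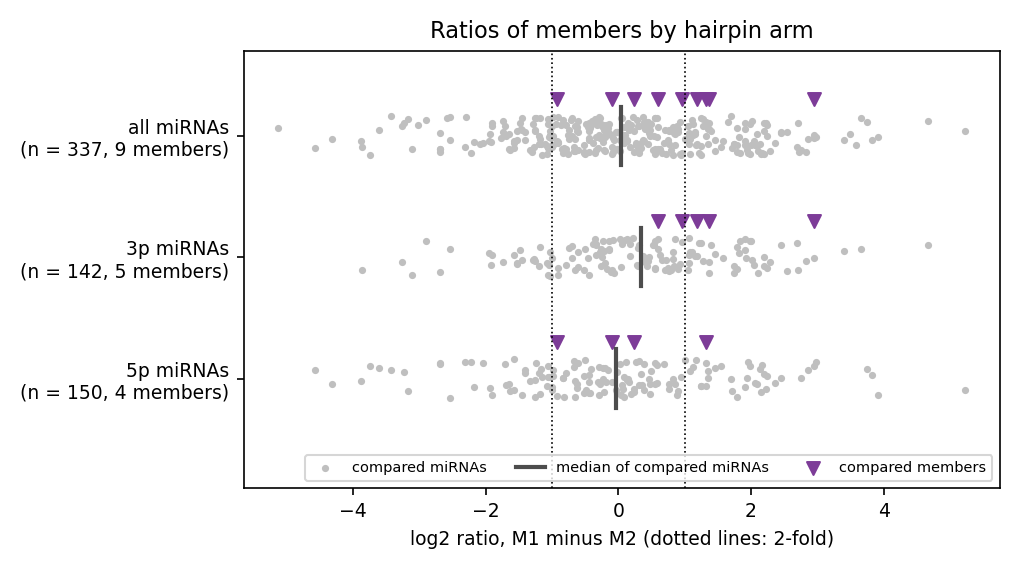
The log2 ratio, M1 minus M2, of the compared miRNAs (grey points, spread vertically for visibility) for all, for 3p and for 5p miRNAs, with their medians (bars) and the compared members (triangles). The 5 members from 3p arms lie between 0.60 and 2.96, and the 4 from 5p arms lie between -0.92 and 1.32.

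Markers of the labelled cells and of others were read from the same libraries. All 6 macrophage and myeloid miRNAs listed (miR-223-3p, both arms of miR-142a, miR-155-5p, miR-146a-5p and miR-21a-5p) were present in both libraries. They held 21.5% of the level in the M1 library and 13.4% in the M2 library. Most of the M1 share was miR-146a-5p, which alone held 17.6% and 6.89%, while miR-21a-5p held 3.33% and 6.19%. The list was split, 3 having the higher value in the M1 library and 3 in the M2 library. Of these, 3 passed 2-fold on the M1 side and 1 on the M2 side. Most compared markers of other cell types had higher values in the M1 library. The exception was the stromal miR-143-3p, at 394.9 units in the M1 library and 497.7 units in the M2 library. Over all compared miRNAs 26.1% passed 2-fold on the M1 side and 22.8% on the M2 side. Of the 7 erythroid miRNAs 6 were compared and all 6 passed 2-fold on the M1 side. The list summed to 9269 units in the M1 library and 1826 units in the M2 library. Of the 6, miR-144-5p (48.4 and 2.66 units) reached the minimum in the M1 library alone. The miR-486a-5p and miR-486b-5p entries had close values, 2958 and 2756 units in the M1 library, and may hold the same reads. The same holds for miR-486a-3p and miR-486b-3p, at 672 and 649 units in the M1 library. Of the 8 stromal miRNAs 7 were compared and 4 passed 2-fold on the M1 side, with sums of 5007 and 1781 units. Of these 4, miR-145a-5p (35.0 and 1.39 units) and miR-145a-3p (27.1 and 0.10 units) reached the minimum in the M1 library alone. Of the 3 liver miRNAs, all compared, miR-122-5p was the one past 2-fold, also on the M1 side, and the list summed to 60272 and 13050 units. miR-145a-3p and miR-214-3p (0.08 units) lay below the worth of 1 read in the M2 library. miR-122-5p made up most of the liver sum, at 59763.5 units in the M1 library and 12650.3 units in the M2 library. miR-192-5p and miR-194-5p had level ratios of 1.28 and 1.27, below the members' own sum ratio of 1.67. That sum ratio was smaller than those of the erythroid, stromal and liver lists, at 5.08, 2.81 and 4.62. The part of such cells in the members' ratios was not tested. In such bulk libraries more vesicles from a cell type and more of a miRNA per vesicle cannot be told apart.

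The miRNAs nearest to the leading member of each large cluster were found by distance over the 2 log2 values. For miR-92a-3p, at 9.75 and 8.78, they were miR-425-5p (9.58 and 8.67), miR-423-3p (10.09 and 8.63) and miR-126a-3p (9.89 and 9.18). For miR-25-3p, at 13.03 and 12.43, they were miR-29a-3p (13.09 and 12.72), miR-222-3p (13.38 and 12.85) and miR-140-3p (12.49 and 12.32). With only 2 libraries this says that their levels were alike and nothing more. The miR-23/27/24 clusters, likewise a pair of duplicated polycistrons, were far more abundant, at 12.2% of the level in the M1 library and 9.84% in the M2 library. Of their 9 compared miRNAs 0 passed 2-fold on the M1 side and 3 on the M2 side, with a median of 0.10. Among all compared miRNAs the shares were 26.1% and 22.8%. The difference from the miR-17-92 family was not tested.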

How the data were processed

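The authors deposited 1 log2 value per mature miRNA for each library. Bowtie2, bedtools and mm10 are named, per the submitters' processing notes, without role or version. Counting and normalization were not given in the sources used here. Levels are 2 to the power of the value, minus 1. Read steps were found on low values of miRNAs without a full read in the other library, where 99.4% of 175 M1 values and 95.3% of 129 M2 values were whole multiples within 0.1 step. Among low values of miRNAs with at least 0.5 read in both libraries, 44.7% of 228 M1 values and 25.7% of 241 M2 values were. In the M2 library 175 values lay above 0 but below 1 read, so the libraries were treated as normalized together, and total read counts are unknown. The minimum of 10 units equals 12.5 reads in the M1 library and 8.18 reads in the M2 library. Floors of 3 reads and the intervals given cover counting error only.

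The ratio is M1 minus M2 on the log2(level + 1) scale, which understates differences of low miRNAs, and 2-fold counted as different. The members and lists were chosen with earlier results of these data known. All 10 members are described, other miRNAs of the clusters or seeds are named where above 0, and the 3 nearest miRNAs are given for the most abundant member of each large cluster. Names, positions and sequences come from RefSeq (GRCm38.p6) and overlaps from GENCODE M21. The rule was also run on simulated data, with settings and outcome not given here. That run is not support for the results and does not replace the replicate error missing here. Python 3.11.15, numpy 2.4.6, pandas 2.3.3 and scipy 1.17.1 were used.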

Additional observations from a re-analysis of the deposited data

How the results depend on the processing

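No paired analysis was possible because a group is a single library, with nothing to pair or to drop. The median of the compared members ranged from 0.78 to 1.06 over the alternatives, and that of the miR-25 seed group likewise. Both reached 1.06 when each library was divided by its summed level. The miR-106b-25 median ranged from 0.60, without miR-106b-3p or with a minimum of 100 units, to 0.99. The miR-17 seed group median ranged from 0.00 to 0.23. The miR-17-92 median, 0.43, ranged from -0.10 with no minimum level, which adds miR-18a-5p, to 0.96 with a minimum of 100 units, which leaves miR-92a-3p alone. No minimum level also gave 1 member, miR-18a-5p, past 2-fold on the M2 side. With a minimum of 100 units 4 members were compared and 1 passed 2-fold on the M1 side, against 4 of 9. For all compared miRNAs the corresponding numbers were 37 of 162 and 88 of 337. With 10 units added before the logarithm miR-106b-5p fell just under 2-fold, at 0.97, and miR-363-3p had 1.27. Leaving out miR-363-3p was chosen after seeing the data. Depth limits miR-18a-5p, miR-363-3p and the X cluster, which rest on a few reads.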
